A study of Mus musculus with 67 samples.

Results

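The cytosolic ribosomal protein genes were followed in the striatum of 67 C57BL/6 mice. They were taken as every feature of the array whose only gene symbol began with Rpl or Rps and a digit, or was Rpsa, Rplp0, Rplp1 or Rplp2, with the S6 kinases and pseudogenes left out. The rule found 97 of 8448 features, which covered 54 of the 4209 genes named on the array. Of these genes 35 belong to the large subunit (59 features) and 19 to the small subunit (38 features). A further 22 features that carried a ribosomal protein symbol among several symbols were left out. Among the 54 are 2 paralogs, Rpl7l1 and Rpl22l1, which by name are relatives of a subunit protein.

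The study compared mice by age, sex and diet on nylon filters of the B part of a 17K mouse cDNA clone set, with 1 filter per mouse. Mice were fed ad libitum (AL) or were put on caloric restriction (CR), in which a fortified feed was cut stepwise in early adulthood and then held. Adults were young (169 to 194 days), middle-aged (472 to 499 days) or old (673 to 743 days), and there were 10 juvenile AL mice of 17 to 44 days. Each combination of adult age, diet and sex held 5 mice, but there were 4 males in young CR and 3 in old CR, and the juveniles were 5 males and 5 females. All 3 old CR males were 673 days old, whereas the old AL males were 714 to 743 days old. No transgene, drug or other treatment is named for any group. The RNA is that of a whole dissected region, so fewer cells of a type and less RNA per cell cannot be told apart.

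The ribosome is built from RNA and many small basic proteins, nearly all encoded by single genes scattered over the genome. The large subunit forms peptide bonds and carries a flexible stalk that recruits translation factors, and the small subunit reads the messenger. Cells make the proteins in matched amounts, and their mRNAs share a start of pyrimidines, the terminal oligopyrimidine tract, through which growth signaling by mTOR controls their translation. In neurons, ribosomes lie in the cell body and also in dendrites, where local translation takes part in synaptic plasticity.

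The starts of these genes are shown because that tract is the sequence they are best known to share. Windows of 250 bases before and 50 bases after the annotated start were held in RefSeq promoters (GRCm38.p6) for 44 of the 54 genes, in 53 windows. A tract was an unbroken run of C or T on the transcribed strand that began with C at the first base. It was counted where it held 5 bases or more, that first C included. It stood exactly at the annotated start in 7 of the 53 windows (13.2%), from 7 genes, and in 2.51% of all 32851 windows. The letters CTTTC lay within 20 bases of the start in 11 of the 53 windows (20.8%) and in 5.49% of all windows. On the opposite strand, GAAAG in the transcribed direction was found in 3 of the 53 (5.66%) and in 4.86% of all, and no window held both. A match is a description of the letters at the annotated start. The 30 bases around the start of 5 of the 7 genes follow, read from 5′ to 3′, with the tract in capitals.

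Rps6, chr4:86857353-86857382, minus strand: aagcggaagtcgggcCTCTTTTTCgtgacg
Rplp2, chr7:141447636-141447665, plus strand: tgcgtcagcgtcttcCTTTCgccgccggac
Rpl35, chr2:39005117-39005146, minus strand: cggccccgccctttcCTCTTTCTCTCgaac
Rpl38, chr11:114668565-114668594, plus strand: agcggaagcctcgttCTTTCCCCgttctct
Rps10, chr17:27635230-27635259, minus strand: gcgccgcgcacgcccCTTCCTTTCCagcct

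The start shown for Rpl38 lies inside the full annotated span of the gene, and the other 4 at its outer end. The tract was 5 bases long in Rplp2, 8 in Rpl38, 9 in Rps6, 10 in Rps10 and 11 in Rpl35. The 54 genes lie on 19 chromosomes with no more than 5 on any of them, and Rpl10, Rpl39 and Rps4x lie on the X chromosome.

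Values are Z scores, scaled within each array to mean 0 and SD 1, so a difference of 1 Z is 1 SD of the array and no fold change is given. In the old AL arm, the columns of male 5 and female 5 ran in the opposite order to the rest and were turned end to end. A set of 8 arrays, in 8 different groups, correlated with the median profile at an r below 0.95, and the other 59 did not. The titles are numbered, and the groups recur in about the same order in 5 runs of numbers (1 to 14, 15 to 28, 29 to 41, 42 to 55 and 56 to 67); the methods say that samples were processed in balanced batches, and whether the runs are those batches is not given. The description of old AL male replicate 2 repeats that of another mouse, and its title and characteristics were used. Of the 6 striatal neuron markers on the array all 6 lay above the mean score filter in the adult fit, and no myelin, endothelial or choroid plexus marker with a single symbol was on it.

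Most of the genes passed the filter on low scores. In the 57 adults, 49 of the 54 genes (90.7%; 31 large, 18 small) had a mean score above 0, against 50.2% of all 7782 rows, where a row is a gene or a feature with no single symbol. The 5 that did not were Rpl3, Rpl35a, Rpl37a, Rplp0 and Rps9, and they were not tested. Probes differ in how strongly they bind, so no gene's score is set against another's.

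The genes moved together from mouse to mouse. The mean over the 54 genes, taken as 1 value per mouse, ranged from 0.249 Z in middle AL female replicate 2 to 0.610 Z in young AL male replicate 1. Within groups its SD was 0.0798 Z over the adults, 4.02 times the 0.0199 Z that the genes' own SDs would give if each varied on its own. Without the 8 arrays of low correlation the SD was 0.0625 Z and the ratio 4.37. The same ratio was 2.94 for the large and 2.87 for the small subunit. It was 2.05 for 33 translation factor genes, 1.43 for 28 genes of ribosome production and 0.831 for 24 genes of the mitochondrial ribosome. Without the 8 arrays these were 2.11, 0.878 and 1.14. Genes of a list share arrays and normalization, and the ratio also grows with the number of genes, so it is given as a description. The median score over all features was 0.05 Z on the array of young AL male replicate 1. It was -0.07 Z on that of middle AL female replicate 2. The part of such array-wide shifts in the ratio was not tested.

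Large and small subunit genes shifted as 1 set. The large minus the small subunit mean differed between mice of a group with an SD of 0.0208 Z, against 0.0751 Z for the large and 0.0895 Z for the small subunit mean alone. Counted against each gene's own adult mean, 9 of the 59 arrays had at least 45 of the 54 genes above it and 6 had at most 9. In 27 of them 18 to 36 genes were above it. Young CR female replicate 3 had 49 genes above (31 of 35 large), while middle CR female replicate 5 had 5. These opposite mice shared diet and sex but differed in age class, and their title numbers lay in runs 3 and 5.

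**Figure D1:**
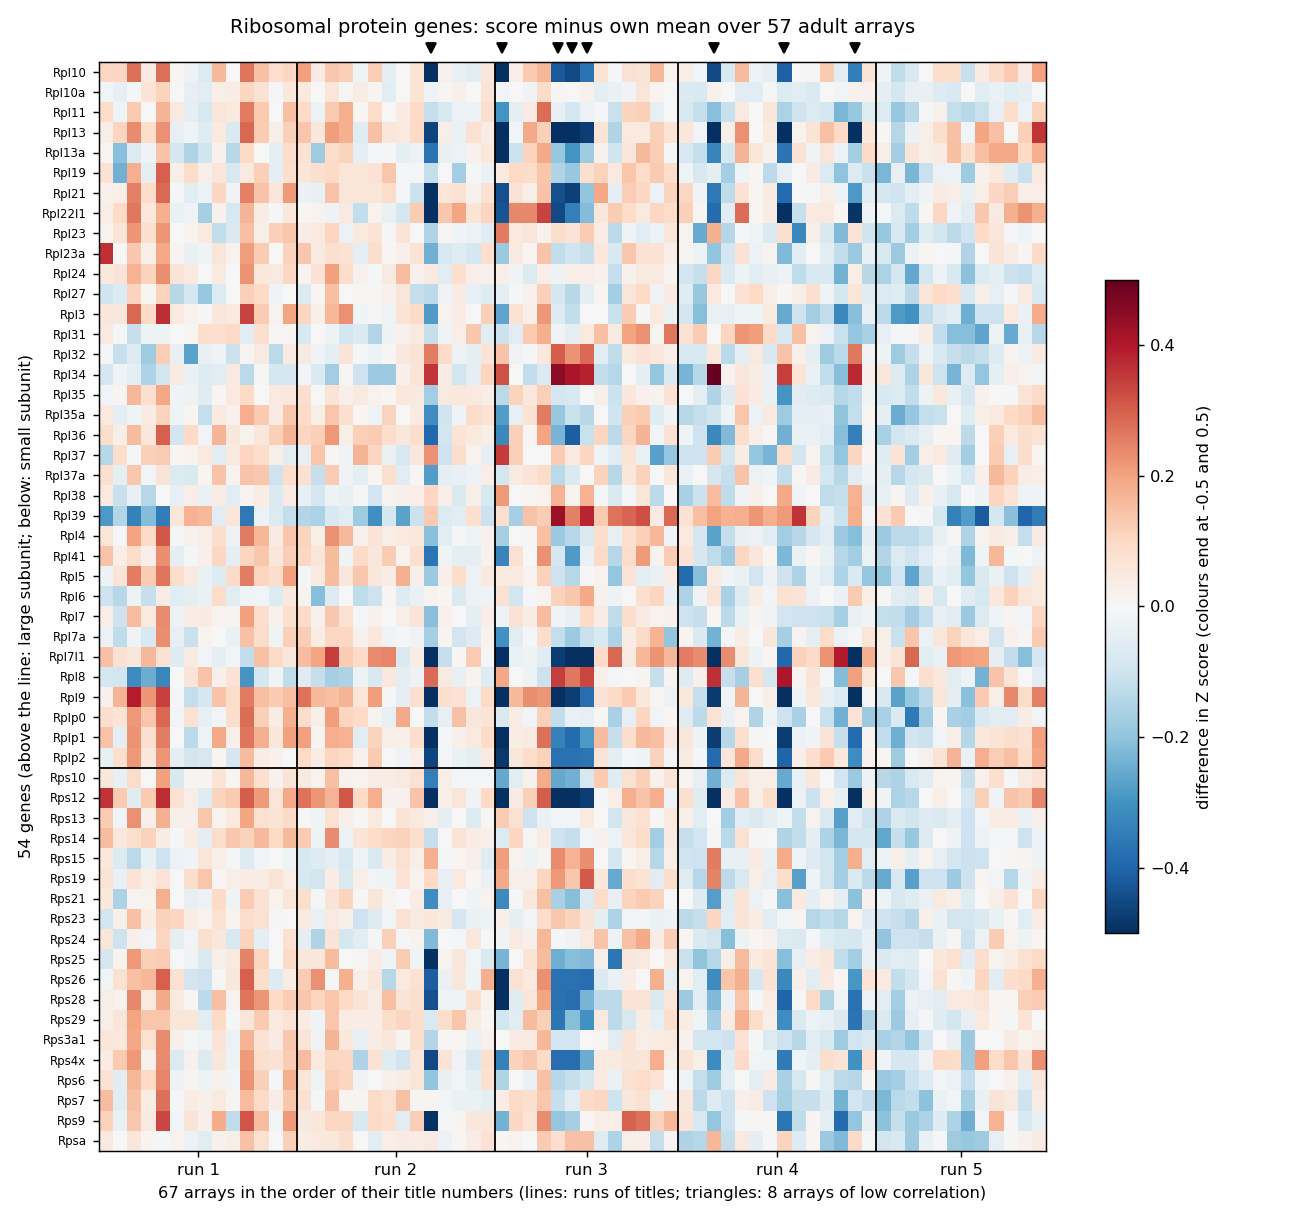
Score of each of the 54 genes (rows) minus its own mean over the 57 adult arrays, for 67 arrays (columns) in the order of their title numbers; red is above and blue below, in Z. Whole columns are red or blue across both subunits, the 8 arrays marked by triangles hold strong colours of both signs, and Rpl39 has a pattern of its own along the runs.

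The 8 arrays of low correlation carried a pattern within the ribosomal protein genes. On these arrays 39 of the 54 genes had a lower mean than on the other 59 and 15 a higher one, with a median difference of -0.147 Z. Of the 49 genes above the filter, 34 were lower. Over all rows above the filter, 48.5% were lower and the median difference was 0.0167 Z. Rps12 was 0.239 Z on the 8 and 0.944 Z on the 59, a difference of -0.705 Z. Rpl13 differed by -0.662 Z, Rpl7l1 by -0.646 Z and Rpl9 by -0.588 Z. In the other direction stood Rpl34 (0.800 Z against 0.345 Z, a difference of 0.455 Z), Rpl8 (0.341 Z) and Rpl39 (0.273 Z). The cause of this pattern was not tested, and results below are given with and without these arrays where they part. The genes of this paragraph were chosen after their values were seen.

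Spread between mice of the same group was moderate. The median within-group SD of the 49 tested genes was 0.123 Z, against 0.160 Z for all tested rows, and without the 8 arrays it was 0.0970 Z against 0.114 Z. The steadiest genes were Rpl10a (SD 0.0457 Z), Rpl6 (0.0743 Z) and Rps23 (0.0763 Z), a decoding centre protein. The most variable were Rps12 (0.267 Z), Rpl7l1 (0.259 Z) and Rpl13 (0.248 Z). These have 1 feature each, as has Rps23, while Rpl10a and Rpl6 each average 2. Without the 8 arrays Rps12 had an SD of 0.114 Z, Rpl13 0.101 Z and Rpl7l1 0.141 Z. Rpl39, a protein of the nascent chain exit tunnel, kept an SD of 0.226 Z without them.

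**Figure D2:**
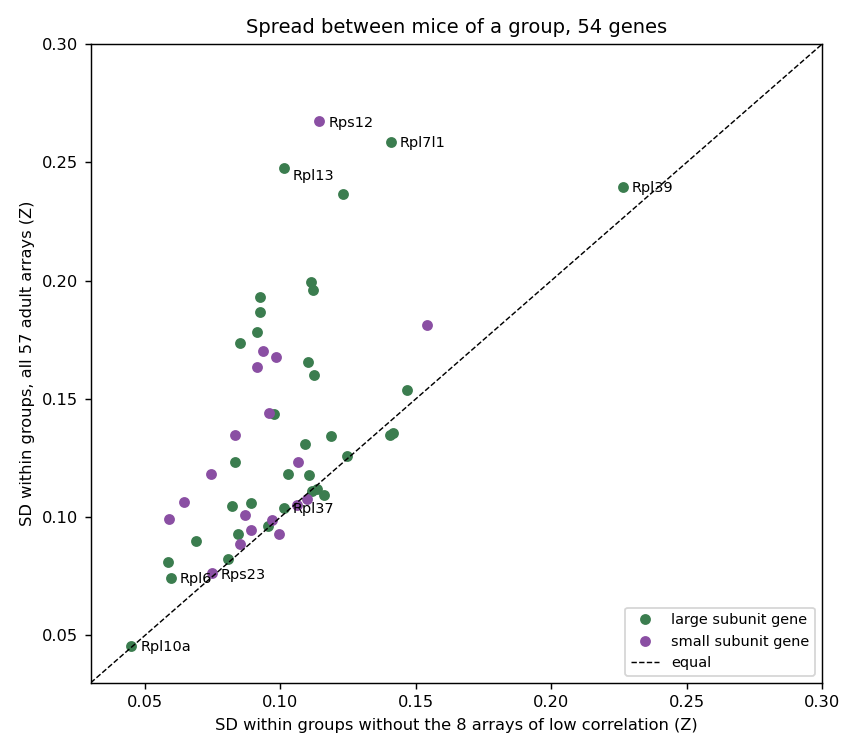
SD between mice within groups, in Z, for each of the 54 genes with all 57 adult arrays (vertical axis) and without the 8 arrays of low correlation (horizontal axis); the dashed line marks equal values. Rps12 and Rpl13 lie far above the line, while Rpl39 lies close to it at a high SD and Rpl10a at a low one.

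The level of the genes also moved with the order of the titles. Once the 8 arrays were left out, the mean over the 54 genes was 0.498 ± 0.0573 Z in run 1 (SD, 14 arrays), 0.479 ± 0.0288 Z in run 2 (13 arrays) and 0.491 ± 0.0534 Z in run 3 (9 arrays). It was 0.420 ± 0.0463 Z in run 4 (11 arrays) and 0.420 ± 0.0575 Z in run 5 (12 arrays). In runs 1 to 3 together, 41 of the 49 tested genes were higher than in runs 4 and 5, by a median of 0.0667 Z, and of all tested rows 53.0% were higher, by a median of 0.00907 Z. Translation factor genes ran the same way, with means of 0.103, 0.0877, 0.0931, 0.0313 and 0.0361 Z in runs 1 to 5. Rps6 had a mean of 0.489 Z in run 1, 0.444 Z in run 2, 0.457 Z in run 3, 0.376 Z in run 4 and 0.359 Z in run 5. Rpl39 went its own way, with 0.940, 0.929, 1.21, 1.17 and 0.884 Z in runs 1 to 5. Since young CR males have no array in run 5 and old CR males none in runs 3 and 5, values with the run as a block or within runs and sexes stand beside the comparisons below.

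Group means of the ribosomal protein genes lay closer together than the mice within a group. The mean over the 54 genes was 0.418 ± 0.0714 Z in juvenile AL mice (SD, n = 10), with a lowest mouse at 0.287, a median of 0.432 and a highest at 0.510 Z. In young mice it was 0.438 ± 0.0864 Z on AL (n = 10; 0.311, 0.443 and 0.610 Z) and 0.473 ± 0.0884 Z on CR (n = 9; 0.340, 0.492 and 0.578 Z). In middle-aged mice it was 0.437 ± 0.0780 Z on AL (n = 10; 0.249, 0.449 and 0.521 Z) and 0.437 ± 0.0415 Z on CR (n = 10; 0.345, 0.445 and 0.486 Z). In old mice it was 0.460 ± 0.0589 Z on AL (n = 10; 0.318, 0.470 and 0.538 Z) and 0.456 ± 0.101 Z on CR (n = 8; 0.294, 0.465 and 0.584 Z). The ranges of all 7 arms overlapped, and the highest and lowest arm means, young CR and juvenile AL, differed by less than the SD of either. These SDs describe single mice and are not the error of a difference between means. Middle-aged CR mice had the smallest SD and old CR mice the largest, but without the 8 arrays old AL mice had the smallest (0.0335 Z, against 0.0417 Z in middle-aged CR mice).

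**Figure D3:**
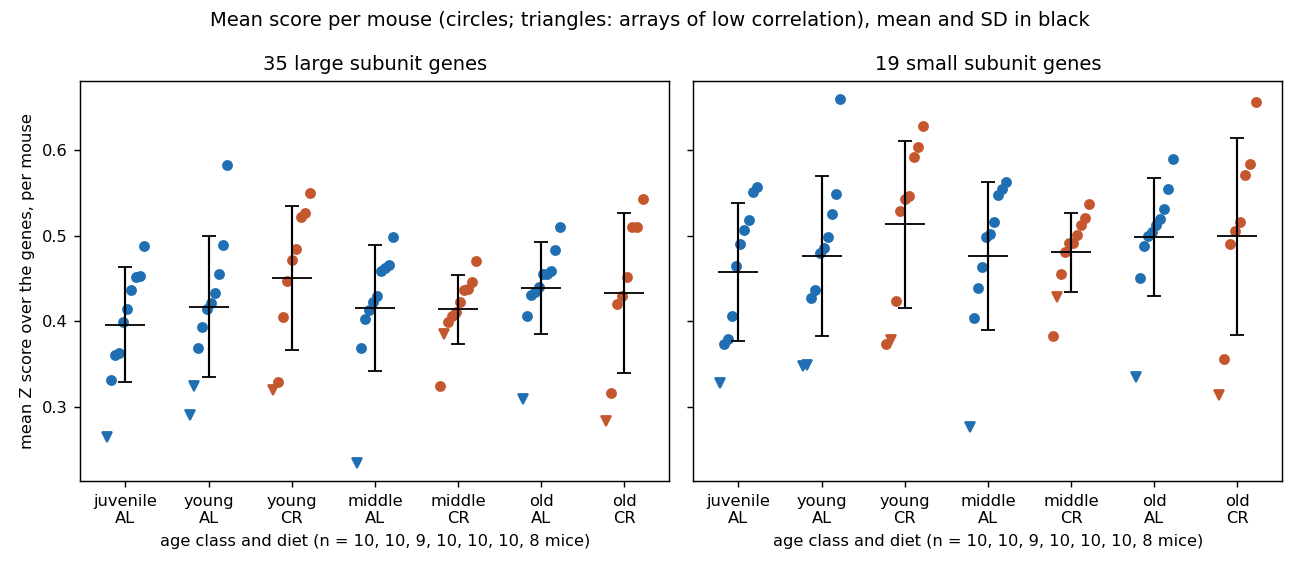
Mean Z score per mouse over the 35 large (left) and 19 small subunit genes (right) by age class and diet; blue is AL and orange CR, triangles are the 8 arrays of low correlation, and black marks give the mean and SD over mice. All arms overlap, and 6 of the 7 lowest mice across the arms of the left panel are triangles.

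The stalk proteins were measured by 3 genes. Rplp1, whose acidic protein forms the stalk with that of Rplp2, had a mean of 0.670 ± 0.197 Z in young AL mice (lowest 0.343, median 0.697, highest 0.987 Z). It was 0.772 ± 0.228 Z in young CR mice (0.257, 0.810 and 1.01 Z), 0.780 ± 0.168 Z in old AL mice (0.340, 0.797 and 0.933 Z) and 0.744 ± 0.232 Z in old CR mice (0.253, 0.785 and 0.997 Z). Every arm of Rplp1 overlapped every other, and the lowest mouse of each of the 7 arms was an array of low correlation. Rplp2 had arm means between 0.286 Z in juveniles and 0.359 Z in young CR mice, with SDs from 0.133 to 0.209 Z. Rplp0, which anchors both to the ribosome, lay below 0 in all 7 arms, from -0.117 ± 0.0724 Z in middle-aged AL mice to -0.0311 ± 0.186 Z in young CR mice.

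Rps6, the phosphorylated target of the S6 kinases, ranged from 0.358 ± 0.0924 Z in juveniles to 0.444 ± 0.126 Z in young CR mice. Rpsa, also known as the laminin receptor precursor, ranged from 0.754 ± 0.0956 Z in middle-aged AL mice to 0.822 ± 0.104 Z in young CR mice. Rpl13a, which also has a part in translational silencing, ranged from 0.142 ± 0.167 Z in juveniles to 0.313 ± 0.100 Z in old AL mice. The arms of each of these genes overlapped. Rpl3, a protein near the peptidyl transferase centre, had arm means from -0.133 to -0.00222 Z, and Rpl41, the smallest ribosomal protein, from 0.290 to 0.333 Z. Fau, whose product is a ubiquitin-like protein fused to a small subunit protein and which the rule does not take in, had arm means from 0.298 to 0.349 Z. Rps3 and Rps27a were not among the genes measured here.

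**Figure D4:**
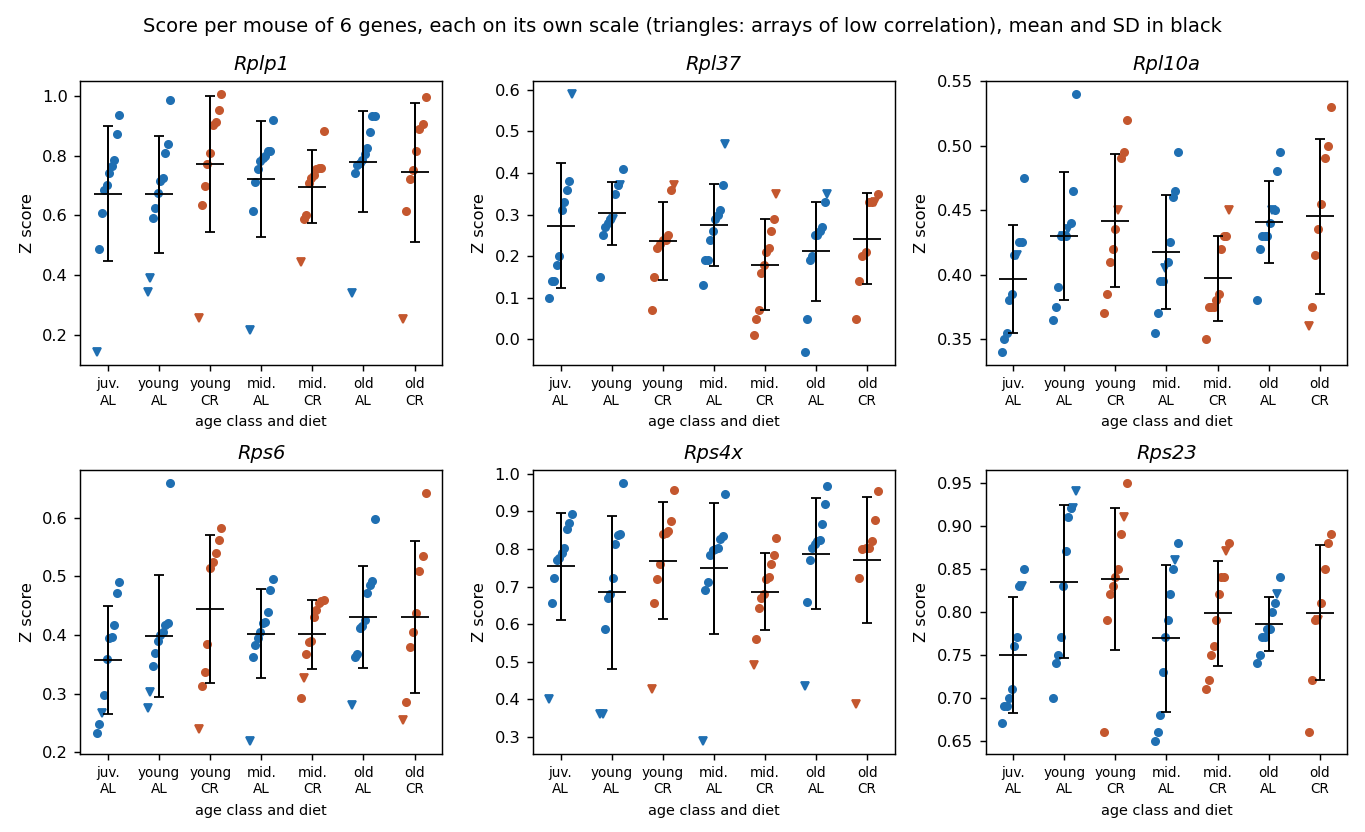
Z score per mouse of Rplp1, Rpl37, Rpl10a, Rps6, Rps4x and Rps23 by age class and diet, each panel on its own scale; blue is AL and orange CR, triangles are the 8 arrays of low correlation, and black marks give the mean and SD. In Rplp1 and Rps4x the triangles are the lowest mice of their arms, while in Rpl37 most of them lie among the highest.

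In each of the 15 comparisons below, none of the tested ribosomal protein genes passed a Benjamini-Hochberg adjusted p of 0.05 in limma, and neither did any other row (0% of all rows tested). The smallest adjusted p of any ribosomal protein gene in any comparison was 0.850. At an unadjusted p under 0.05 only 1 of them appeared, Rpl23 in juveniles. By the first steps of the methods' rule (a positive mean, a Z-ratio beyond 1.5 and an unadjusted p under 0.05), without the analysis of variance that follows them in the study, no ribosomal protein gene was called in the 12 comparisons it was run on. SEs of the genes had a median of 0.0559 Z for a comparison of ages on AL, and 0.0834 Z for the difference of the age effect between diets. Shares of genes that were higher are set beside the share over all tested rows, and no test is attached to them.

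Between young and middle-aged AL mice the genes showed no common direction. Of 49, 26 were higher and 23 lower at middle age, with a median difference of 0.003 Z, and 50.4% of all rows were higher; 0.845% of all rows had an unadjusted p under 0.05. The median was the same with the run as a block, and without the 8 arrays it was -0.01 Z with 19 genes higher. Within runs and sexes the mean over the genes was higher at middle age in 7 of 10 pairs. The differences ran from -0.067 Z for Rpl34 to 0.074 Z for Rpl7l1. The smallest p-values of lower genes belonged to Rps23 (-0.066 ± 0.0377 Z, SE), Rpl23 (-0.058 Z) and Rpl32 (-0.059 Z). Those of higher genes belonged to Rps4x (0.0637 ± 0.0723 Z), Rps24 (0.0335 Z) and Rpl7l1. In Rps23, young AL mice had a lowest value of 0.700, a median of 0.850 and a highest of 0.940 Z, and middle-aged AL mice 0.650, 0.780 and 0.880 Z, so the arms overlapped.

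From middle to old age on AL, 38 of 49 genes were higher (24 of 31 large, 14 of 18 small), with a median of 0.023 Z, while 51.4% of all rows were higher and their median was 0.001 Z; 0.333% of rows had an unadjusted p under 0.05. Leaving out middle AL female replicate 2 alone, the lowest mouse of all, gave a median of -0.00275 Z and 21 genes higher. The highest differences by p were those of Rpsa (0.0663 ± 0.0446 Z, SE), Rpl7 (0.062 Z) and Rpl35 (0.0517 Z). Rpl37, Rpl39 (-0.061 ± 0.104 Z) and Rpl8 (-0.041 ± 0.0731 Z) stood on the other side. Within runs and sexes, old mice had the higher mean over the 54 genes in 6 of 10 pairs.

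Old and young AL mice differed by a median of 0.0187 Z, with 32 of 49 genes higher in the old and 49.4% of all rows higher; 0.307% of rows had an unadjusted p under 0.05. With the 8 arrays removed, the median was 0.00388 Z and 29 genes were higher. Rplp1 had the largest difference (0.109 ± 0.0858 Z, SE), followed by Rps4x (0.103 ± 0.0723 Z); by p, Rpl6 (0.0555 ± 0.0370 Z) and Rps24 (0.0565 ± 0.0424 Z) stood with Rps4x. On the lower side were Rpl37, Rps23 (-0.049 Z) and Rpl34 (-0.051 Z). Within runs the mean over the genes was higher in old mice in 6 of 10 pairs, with a mean difference of 0.0217 ± 0.102 Z (SD over pairs), and without the 8 arrays in 4 of 7 pairs, with -0.00365 ± 0.0852 Z.

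Rpl37, which encodes a zinc-binding protein of the large subunit, had the smallest p here. Its score in young AL mice had a lowest value of 0.150, a median of 0.290 and a highest of 0.410 Z. In old AL mice these were -0.030, 0.25 and 0.350 Z. The arms overlapped, and old minus young was -0.091 ± 0.0483 Z (SE; unadjusted p = 0.0656 in limma, adjusted p of 1). Old minus middle-aged was -0.063 ± 0.0483 Z. On the 8 arrays of low correlation Rpl37 was 0.163 Z higher than on the rest.

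Under CR, 42 of the 49 genes had a lower mean at middle age than in young mice, and none passed the test. They were spread over both subunits (27 of 31 large, 15 of 18 small) while 7 genes were higher. The median was -0.0413 Z, and 45.7% of all rows were higher with a median of -0.00875 Z; 2.18% of rows had an unadjusted p under 0.05. Centring each array on its median gave -0.0255 Z with 14 higher, quantile normalization -0.0334 Z with 13 higher, the run as a block -0.0377 Z with 10 higher, and the fit without the 8 arrays -0.0515 Z with 7 higher. The largest differences were those of Rpl9 (-0.169 ± 0.106 Z, SE) and Rps26 (-0.123 ± 0.0774 Z), with Rpl10a (-0.0428 ± 0.0281 Z) next by p. Rpl8 (0.126 ± 0.0754 Z), Rps19 (0.0473 Z), a gene mutated in Diamond-Blackfan anaemia, and Rps24 (0.038 Z) were higher. With arrays weighted by an estimated quality, the limma adjusted p was 0.0254 for Rpl8, 0.00464 for Rpl9 and 0.00464 for Rps26, and in no other setting tried did they pass.

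Rpl9 shows what stands behind such a difference. In young CR mice its lowest value was 0.240, its median 0.890 and its highest 1.11 Z. In middle-aged CR mice these were 0.340, 0.670 and 0.790 Z. The median young CR mouse lay above the highest middle-aged one, but the young range covered the middle-aged range, and each arm held 1 array of low correlation. The median of the genes stayed below 0 with every single array left out (from -0.0560 to -0.0278 Z). It was smaller than the within-group SD of the same median over adult mice, 0.0744 Z. That SD describes single mice and is not the error of a difference between groups. Within runs and sexes the mean over the genes was lower at middle age in 6 of 9 pairs, with a mean difference of -0.0333 ± 0.0724 Z (SD).

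From middle to old age on CR, 33 of 49 genes were higher, with a median of 0.015 Z, and 48.6% of all rows were higher; 0.999% of rows had an unadjusted p under 0.05. The result turned on the 3 old CR males, whose means over the 54 genes were 0.584, 0.445 and 0.294 Z (replicates 1, 2 and 3). Replicate 3 is one of the 8 arrays of low correlation. With the run as a block the median was 0.0150 Z, and old mice were the higher in 4 of 8 pairs within runs and sexes. Without the 8 arrays old mice were the higher in 4 of 7 pairs. The mean over the genes was then 0.480 ± 0.0826 Z in old CR mice (SD, n = 7) and 0.442 ± 0.0417 Z in middle-aged CR mice (n = 9). Without replicate 1 of the old CR males the median was -0.0260 Z with 14 genes higher, and without replicate 3 it was 0.0540 Z with 39 higher. By p, Rpl10a (0.0473 ± 0.0295 Z, SE), Rpl37 (0.0687 ± 0.0522 Z) and Rpsa (0.0623 ± 0.0481 Z) led the higher genes. Rpl36 (-0.0537 Z), Rpl31 (-0.0448 Z) and Rpl39 (-0.0717 Z) led the lower ones.

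Old CR mice compared with young CR mice had 38 of 49 genes lower and 11 higher, with a median of -0.0223 Z, and 49.7% of all rows were higher; 0.154% of rows had an unadjusted p under 0.05. Leaving out the 8 arrays gave a median of 0.00275 Z with 26 genes higher, so the direction rested on them. Without old CR male replicate 3 alone the median was 0.0179 Z with 32 genes higher, and without replicate 1 it was -0.0688 Z with 8 higher. Rpl35 (-0.0569 ± 0.0475 Z, SE), Rps29 (-0.0664 Z) and Rpl19 (-0.0536 Z) led the lower genes, and Rpl38 (0.0531 ± 0.0438 Z), Rpl32 (0.0628 Z) and Rpl8 (0.0761 Z) the higher ones. With the run as a block the median was -0.0225 Z, and old mice had the higher mean over the genes in 3 of 8 pairs within runs and sexes. The CR comparisons with young mice share the same 9 young CR mice. So do the comparisons of diets in young mice and over all ages.

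In young mice 40 of the 49 ribosomal protein genes had a higher mean on CR than on AL, and none passed the test. They were spread over both subunits (24 of 31 large, 16 of 18 small). The median was 0.037 Z, while 50% of all rows were higher and their median was 0 Z; 0.487% of rows had an unadjusted p under 0.05. The largest differences were Rpl9 (0.126 ± 0.106 Z, SE), Rplp1 (0.108 ± 0.0884 Z) and Rps28 (0.102 ± 0.0763 Z), and by p Rps4x (0.0926 ± 0.0745 Z) and Rps29 (0.0768 ± 0.0625 Z) stood with Rps28. Rpl37 (-0.0683 ± 0.0498 Z), Rpl8 (-0.0808 ± 0.0754 Z) and Rpl32 (-0.0538 ± 0.0576 Z) were lower. On the 8 arrays of low correlation, Rpl9 (-0.588 Z), Rplp1 (-0.480 Z), Rps28 (-0.403 Z), Rps4x (-0.395 Z) and Rps29 (-0.263 Z) lay below the rest. Rpl37 (0.163 Z), Rpl8 (0.341 Z) and Rpl32 (0.243 Z) lay above it. Over the settings tried, Rps28 ranged from 0.0475 to 0.106 Z, Rps4x from 0.0463 to 0.112 Z and Rps29 from 0.0325 to 0.0837 Z. The part of those arrays in these differences was not tested. None passed the test.

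The medians of the young diet comparison kept their direction in every setting tried and with each array left out (0.0180 to 0.0602 Z). Median centring gave 0.0198 Z with 34 genes higher, the run as a block 0.0343 Z with 39, and the fit without the 8 arrays, of which young AL mice held 2 and young CR mice 1, 0.0250 Z with 39. Within runs and sexes, the mean over the 54 genes was higher on CR in 6 of 9 pairs, by 0.0315 ± 0.133 Z (SD). Leaving out the 8 arrays, it was higher in 4 of 6 pairs, by 0.00474 ± 0.0695 Z. The pairs thus spread far more widely than their mean, and these SDs describe single pairs, not the error of that mean. Rps4x gives the picture for a single gene: young AL mice had a lowest value of 0.360, a median of 0.702 and a highest of 0.977 Z, and young CR mice 0.427, 0.840 and 0.957 Z.

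At middle age the diets were close. Of 49 genes 30 were higher on CR, with a median of 0.006 Z and 49.2% of all rows higher; 0.0768% of rows had an unadjusted p under 0.05. Once the 8 arrays were left out, the median was -0.00888 Z and 16 were higher, and without middle AL female replicate 2 alone it was -0.0100 Z with 19. With the run as a block the median was 0.006 Z, and CR was the higher in 4 of 10 pairs within runs and sexes. Rpl37 had the smallest p, with a lowest value of 0.130, a median of 0.275 and a highest of 0.470 Z on AL and 0.010, 0.195 and 0.350 Z on CR. The difference was -0.095 ± 0.0483 Z (SE; unadjusted p = 0.0549 in limma, adjusted p of 1), with overlapping arms. Rpl9 (-0.09 ± 0.103 Z) and Rps4x (-0.062 Z) were also lower, and Rpl7 (0.046 Z), Rps24 (0.0375 Z) and Rps25 (0.055 Z) higher.

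In old mice 24 of 49 genes were higher on CR and 25 lower, with a median of -0.000833 Z and 47.1% of all rows higher; 0.102% of rows had an unadjusted p under 0.05. With the run as a block the median was -0.00369 Z, and CR was the higher in 2 of 8 pairs within runs and sexes. Without the 8 arrays the median was 0.0241 Z with 36 genes higher. Leaving out old CR male replicate 1 gave 11 higher and leaving out replicate 3 gave 37. By p the leading genes were Rpl35 (-0.0606 ± 0.0463 Z, SE), Rpl13a (-0.0657 Z) and Rpl36 (-0.0627 Z) on the lower side. Rpl38 (0.0495 ± 0.0427 Z), a protein tied to the translation of homeobox mRNAs, Rpl27 (0.0463 Z) and Rpl37 (0.0367 Z) were on the higher side. Averaged over the 3 ages, 37 of 49 genes were higher on CR (16 of 18 small), with a median of 0.00957 Z and 45.7% of all rows higher; 0.256% of rows had an unadjusted p under 0.05. With the run as a block that median was 0.00936 Z. Rpl27 (0.0394 ± 0.0239 Z), Rpl7 (0.0350 Z) and Rps25 (0.0451 Z) led, against Rpl37 (-0.0422 ± 0.0289 Z), Rpl34 (-0.0274 Z) and Rpl35 (-0.0115 Z).

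Between females and males the genes showed no common direction. Of 49 genes 27 were higher in females, with a median of 0.000757 Z and 54.5% of all rows higher; 0.179% of rows had an unadjusted p under 0.05. Differences ran from -0.0473 ± 0.0308 Z (SE) for Rpl19 to 0.0292 ± 0.0693 Z for Rps12. Rpl27 (-0.0287 Z) and Rpl38 (-0.0280 Z) were next on the lower side, and Rpl11 (0.0229 ± 0.0322 Z), which binds the p53 regulator Mdm2, Rpl23a (0.0204 Z) and Rpl13a (0.0269 Z) led the higher side.

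The difference of the age effect between the diets, old minus young on CR less the same on AL, was below 0 for 38 of 49 genes, with a median of -0.0422 Z and 51% of all rows above 0; 0.179% of rows had an unadjusted p under 0.05. With the 8 arrays removed, the median was -0.00275 Z with 23 genes above 0. Rpl13a (-0.127 ± 0.0957 Z, SE), Rplp1 (-0.161 ± 0.128 Z) and Rpl36 (-0.132 Z) were lowest by p, and Rpl37 (0.105 ± 0.0721 Z), Rpl38 (0.0546 Z) and Rpl8 (0.0891 Z) were above 0. On AL, the age effect in females less that in males was above 0 for 40 of 49 genes, with a median of 0.052 Z and 50% of all rows above 0; 0.0512% of rows had an unadjusted p under 0.05. Leaving out the 8 arrays, it was 0.0125 Z with 32 above 0, and without young AL male replicate 1 alone 0.0060 Z with 30. Rpl10a (0.077 ± 0.0545 Z), Rps6 (0.123 ± 0.0943 Z) and Rpl41 (0.109 Z) led, with Rpl8 (-0.078 Z), Rpl37 (-0.026 Z) and Rps15 (-0.022 Z) on the other side.

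Young adults compared with juveniles on AL had 34 of 48 tested genes higher (20 of 31 large, 14 of 17 small), with a median of 0.0209 Z and 52.4% of all rows higher; 0.437% of rows had an unadjusted p under 0.05. Rps23 led by p, with a lowest value of 0.670, a median of 0.735 and a highest of 0.850 Z in juveniles and 0.700, 0.850 and 0.940 Z in young adults, a difference of 0.085 ± 0.0456 Z (SE). Rpl11 (0.081 ± 0.0533 Z) and Rpl27 (0.066 Z) followed. Rpl7l1 (-0.117 ± 0.113 Z), Rps4x (-0.069 Z) and Rpl22l1 (-0.0435 Z) were lower. Without young AL male replicate 1 the median was 0.0010 Z with 24 genes higher. With the 8 arrays removed, of which the juveniles held 1 and the young AL mice 2, it was 0.0322 Z with 40 higher.

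Among juveniles, those of 33 to 44 days had 21 of 48 genes higher than those of 17 to 21 days, with a median of -0.0115 Z and 50.4% of all rows higher; 0.822% of rows had an unadjusted p under 0.05. Rpl23, a protein at the face where the subunits meet, had values of 0.61, 0.64, 0.64, 0.65 and 0.85 Z in the 5 younger juveniles. In the 5 older ones it had 0.34, 0.40, 0.51, 0.61 and 0.63 Z. Both ages thus shared the range around 0.61 to 0.63 Z, and the highest value, 0.85 Z, was a younger juvenile. The difference, with sex as a term, was -0.201 ± 0.0795 Z (SE; unadjusted p = 0.0272 in limma, adjusted p of 0.987).

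Rpl37 (-0.168 ± 0.0899 Z, SE) and Rps19 (-0.116 Z) were also lower in the older juveniles, and Rpl13a (0.179 ± 0.0974 Z), Rpl7l1 (0.160 Z) and Rps21 (0.0922 Z) higher. Juvenile AL male replicate 3, one of the 8 arrays, held the highest Rpl37 and the lowest Rpl13a of its arm. Without this mouse alone the difference was -0.0733 Z for Rpl37, -0.0595 Z for Rps19, 0.0582 Z for Rpl13a, -0.0123 Z for Rpl7l1 and 0.00684 Z for Rps21. With the 8 arrays removed, 10 genes were higher, with a median of -0.0567 Z. With the run as a block 33 were higher, with a median of 0.0167 Z, so the direction in juveniles differed between these settings.

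Separate clones of a gene are separate spots, and 24 of the 54 genes had more than 1, with 67 features in all. In old minus young AL, all features of a gene pointed one way for 12 of the 24 genes, and 52 of the 67 features were higher and 14 lower. For CR minus AL in young mice the counts were 15 of 24 genes and 57 of 67 features. For CR minus AL over all ages they were 13 of 24 and 49 of 67, and for young adult minus juvenile 9 of 24 and 44 of 67. The 4 features of Rps6 differed between young CR and AL mice by 0.0935, 0.0743, 0.04 and -0.0183 Z, and the 3 of Rplp1 by 0.148, 0.122 and 0.0545 Z. The median range between features of a gene was 0.051 Z in old minus young AL, larger than the median difference of the genes there, and the widest, for Rps10, was 0.178 Z.

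The other lists of the protein synthesis machinery were described in the same comparisons. None of their genes passed the adjusted threshold. Between young CR and young AL mice, 8 of 18 tested translation factor genes were higher (median -0.00763 Z), 7 of 11 mitochondrial ribosome genes (median 0.031 Z) and 2 of 14 ribosome production genes (median -0.0533 Z). Between middle-aged and young CR mice, 9 of 18 translation factor genes were higher (median -0.0045 Z), 5 of 11 mitochondrial ribosome genes (median -0.011 Z) and 10 of 14 ribosome production genes (median 0.0248 Z). The production genes, which make and assemble ribosomal RNA and precursors, thus stood on the other side of 0 from the ribosomal proteins in both. Both comparisons use the same 9 young CR mice, so they are not separate results. The mean over the production genes had a within-group SD of 0.0458 Z, and of 0.0217 Z without the 8 arrays of low correlation. No difference of this list without those arrays is given here. With no filter, 10 of 28 production genes were higher on CR than on AL in young mice (median -0.0374 Z). Between middle-aged and young CR mice 18 of 28 were higher (median 0.0216 Z). Of the 10 growth signaling genes on the array 4 were tested, of which 2 were higher in middle-aged than in young CR mice (median 0.0404 Z) and 0 on CR than on AL among young mice (median -0.0393 Z). Over all 10, with no filter, these medians were -0.00438 Z and -0.0128 Z.

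Marker genes of cell types were set beside the comparison of diets in young mice and that of middle-aged with young CR mice. Both use the same young CR mice. Between young CR and AL mice, 3 of 6 striatal neuron markers were higher (median 0.0511 Z), 2 of 2 tested general neuron markers (median 0.0481 Z) and 3 of 5 astrocyte markers (median 0.0493 Z). In the same comparison 0 of 2 microglia and immune markers (median -0.0263 Z), 1 of 2 blood markers (median -0.00379 Z) and 1 of 2 immature neuron markers (median 0.002 Z) were higher. Between middle-aged and young CR mice, 2 of 6 striatal neuron markers were higher (median -0.0449 Z), 0 of 2 neuron markers (median -0.0941 Z) and 0 of 5 astrocyte markers (median -0.0465 Z). There 1 of 2 microglia and immune markers (median -0.0243 Z), 1 of 2 blood markers (median 0.00396 Z) and 1 of 2 immature neuron markers (median -0.0425 Z) were higher. The part of these cell types in the values of the ribosomal protein genes was not tested.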

How the data were processed

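Total RNA from the striatum of 67 mice was labelled with 33P, per the labels (the study's methods name another phosphorus isotope), and hybridized to cDNA filters, 1 per mouse. The deposited values are Z scores that the authors computed per array, with the scale of the intensities before it not given in the sources used here; the score gives each array the same mean and SD, so absolute changes shared by most features cannot be seen. Raw intensities and a background measure were not used here, and the number of arrays limits the precision. All 67 columns matched a sample and 0 did not. Features with 1 gene symbol (4875 of 8448, of which 4861 matched by gene identifier) were averaged per gene; 224 had several symbols and 3349 none, and these stayed single rows. The columns with title numbers 66 and 67 were turned end to end, which brought their correlation with the median profile from 0.138 and 0.135 to 0.992.

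Rows with a mean score above 0 over the arrays of a fit (3904 in adults, 3892 with juveniles and young AL mice, 3893 in juveniles) were tested with limma 3.58.1 (lmFit and eBayes) in R 4.3.3, with 1 mean per group of age, diet and sex and Benjamini-Hochberg adjustment over all rows; other work used Python 3.11.15 with pandas 2.3.3 and numpy 2.4.6. The fit was tested on simulated data. The ribosomal protein genes and the other lists were chosen with earlier results of these data known. Named genes were the stalk genes, Rpsa, Rps6, Rpl3, Rps3, Rpl13a, Rps27a, Rpl41, Fau and Rack1 where measured, in each comparison the 3 genes in each direction with the smallest unadjusted p, genes with several features, and the 3 with the highest and lowest SD within groups. Alternatives changed the order or use of the turned columns, the filter, the normalization, the averaging of features, the groups in the fit, a block for the run of titles, array weights, the arrays of low correlation, a correction for position on the filter, the test (the first steps of the methods' rule, without its analysis of variance), the paralogs, and left out each array in turn. The methods say that mice were housed individually and that a single investigator handled all samples in balanced batches. The labels do not give the batch of any mouse, so p-values measure the spread between these arrays.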

Additional observations from a re-analysis of the deposited data

Results flagged for a closer look

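Values were examined for a mouse far from the others of its group, by the gap to the nearest mouse over the range of the group (Dixon's ratio), for the list means and the genes named by role. Of 144 groups of values 29 had such a mouse. Chance gives about 1 in 20 for independent groups, but these groups reuse the same arrays, so no excess is read from the count. The 8 arrays of low correlation supplied 23 of the 29.

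The mean over the ribosomal protein genes was far lower in old AL male replicate 4 (0.318 Z, among the 5 old AL males and among all old AL mice) and in middle AL female replicate 2 (0.249 Z). For the large subunit the same mice stood at 0.309 Z and 0.234 Z, and for the small subunit old AL male replicate 4 stood at 0.335 Z.

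The stalk genes were low in the arrays of low correlation. Rplp1 was 0.257 Z in young CR female replicate 4, 0.217 Z in middle AL female replicate 2 and 0.340 Z in old AL male replicate 4. Rplp2 was -0.160 Z in juvenile AL male replicate 3, -0.065 Z in young CR female replicate 4, -0.135 Z in middle AL female replicate 2, -0.040 Z in middle CR male replicate 3, 0.015 Z in old AL male replicate 4 and -0.075 Z in old CR male replicate 3. Rpl13a was -0.250 Z in juvenile AL male replicate 3, -0.060 Z in young CR female replicate 4 and -0.100 Z in old CR male replicate 3. Rps4x was 0.400 Z, 0.290 Z and 0.387 Z in juvenile AL male replicate 3, middle AL female replicate 2 and old CR male replicate 3. Rps6 was 0.220 Z in middle AL female replicate 2.

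In arrays outside those 8, Rplp0 was -0.250 Z in old AL female replicate 4 and Rpsa 0.673 Z in old AL male replicate 3. Young AL male replicate 1, with the highest mean of all mice, had the highest Rps6 (0.660 Z) and Rpl3 (0.300 Z) of its arm. Middle CR female replicate 5 had the lowest Rpl3 (-0.310 Z) and Rpl41 (0.085 Z) of its arm.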

How the results depend on the processing

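Of 15 medians over the ribosomal protein genes, 5 kept their sign in all 14 settings but the methods' rule, which gives no median. Of these, 4 also kept it with each array of their fit left out in turn. They were CR minus AL in young mice, CR minus AL over all ages, middle minus young on CR, and young adult minus juvenile. All but the last use the same 9 young CR mice. The last shares its young AL mice with both comparisons of diets, so these 4 are not separate results. Of 90 named gene differences, 25 changed sign in some setting and 11 when 1 array was left out. Outside array weights the smallest adjusted p of a named gene was 0.146. The filters give 1 array per mouse, the scores hide changes shared by most features, depth and background are unknown, old CR males are 3 mice, and the runs and the 8 arrays of low correlation move with the level of these genes.

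The first steps of the methods' rule called 19 rows for middle minus young AL, 22 for old minus middle AL, 11 for old minus young AL, 37 for middle minus young CR, 27 for old minus middle CR, 6, 10, 1 and 11 for CR minus AL in young, middle-aged, old and all mice, 5 for female minus male and 20 for young adult minus juvenile, none of them a ribosomal protein gene. With array weights limma called 1 row for old minus young AL, 625 for middle minus young CR, 173 for old minus middle CR, 970 for old minus young CR, 119 for CR minus AL in old mice, 100 for female minus male and 1 for young adult minus juvenile. Under these weights 6 named differences passed: middle minus young CR for Rpl8 (0.127 Z), Rpl9 (-0.217 Z) and Rps26 (-0.175 Z), old minus young CR for Rpl8 (0.107 Z), and female minus male for Rpl11 (0.0801 Z) and Rpl23a (0.0673 Z). The weights gave 20 genes higher for age by sex and 11 in juveniles. They turned Rpl34 in old minus young AL (0.0165 Z), Rpl32 in CR minus AL of young mice (0.0324 Z), Rpl37 in CR minus AL of old mice (-0.0155 Z), Rpl35 over all ages (0.00794 Z) and Rpl27 in female minus male (0.0141 Z). The cause was not tested.

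With a term for the 8 arrays, 15 genes were higher for middle minus young AL, 14 for female minus male and 9 in juveniles, and Rps15 for age by sex (0.0253 Z), Rpl22l1 for young adult minus juvenile (0.00175 Z) and Rpl7l1 in juveniles (-0.0123 Z) turned. Without the 8 arrays, 26 genes were higher for old minus young CR, 16 for CR minus AL at middle age, 23 for age by diet and 10 in juveniles, and Rpl8 for age by diet (-0.00175 Z), Rps15 for age by sex (0.00917 Z) and Rpl7l1 in juveniles (-0.0123 Z) turned.

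With both turned columns in the deposited order, 18 genes were higher for old minus middle AL, 19 for old minus young AL and 28 for age by diet. Turned there were Rpsa in old minus middle AL (-0.131 Z), Rps4x in old minus young AL (-0.0213 Z), Rpl38 (-0.161 Z) and Rpl27 (-0.128 Z) in CR minus AL of old mice, Rpl27 (-0.0186 Z) and Rpl34 (0.0276 Z) over all ages, and Rpl38 for age by diet (-0.155 Z). Without those 2 arrays Rpl39 in old minus middle AL was 0.0208 Z. For middle minus young CR, 13 genes were higher after quantile normalization and 14 after median centring, and Rps24 was -0.00393 Z after the position correction. With features as rows Rpl22l1 was 0 Z in young adult minus juvenile. With the run of titles as a block, 33 genes were higher in juveniles. Replicate numbers were given in accession order and pair no mice, so the run of titles served as the block.

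Leaving out 1 array at a time, the number of genes higher ranged from 16 to 31 for middle minus young AL, from 21 to 43 for old minus middle AL, from 26 to 41 for old minus young AL, from 6 to 14 for middle minus young CR, from 14 to 39 for old minus middle CR, from 8 to 32 for old minus young CR, from 36 to 43, 19 to 36, 11 to 37 and 26 to 43 for CR minus AL in young, middle-aged, old and all mice, from 13 to 34 for female minus male, from 7 to 27 for age by diet, from 30 to 46 for age by sex, from 24 to 43 for young adult minus juvenile and from 10 to 27 in juveniles. Without old CR male replicate 3 the differences of Rpl13a (-0.117 to 0.001 Z) and Rpl35 (-0.0983 to 0.000833 Z) in CR minus AL of old mice, Rpl35 over all ages (-0.0241 to 0.00894 Z) and Rpl35 (-0.0947 to 0.0045 Z) and Rpl8 (-0.0123 to 0.163 Z) in old minus young CR turned. Others that turned were Rpl22l1 for young adult minus juvenile (-0.0905 to 0.00187 Z), Rpl37 (-0.0925 to 0.015 Z), Rpl8 (-0.166 to 0.0015 Z) and Rps15 (-0.0762 to 0.0218 Z) for age by sex, Rpl7l1 in juveniles (-0.0123 to 0.292 Z, lowest without juvenile AL male replicate 3) and Rps25 in CR minus AL at middle age (-0.00375 to 0.0793 Z, lowest without middle AL female replicate 2).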
